A study of Drosophila melanogaster with 6 samples.

Results

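The genes described here are 10 of the actin machinery, out of 15391 genes in the count table, and all 10 were among the 8377 genes with enough reads to be tested. Arp14D, Arp66B, Sop2, Arpc3A and p16-ARC encode subunits of the Arp2/3 complex. The others are cpa and cpb, the subunits of capping protein, chic and cib, which encode actin monomer-binding proteins, and tsr, which encodes cofilin. The genes were selected by name, with the difference between knockdown and control in these same libraries already known, so their fold changes are given as a description and no p-value is attached to them. The libraries were made from midguts of adult Drosophila melanogaster. In 3 knockdown libraries, labelled Rab11 KD, RNA interference against Rab11, a small GTPase of recycling endosomes, was driven by Myo1A-Gal4, which is active in enterocytes. The 3 reference libraries are labelled WT, with no further genotype given. Flies of both groups were raised at room temperature and, 5 days after eclosion, shifted to 29 °C for a further 5 days before dissection. The labels name enterocyte as the cell type, but the RNA came from dissected midguts, which also hold stem cells, enteroblasts, enteroendocrine cells, visceral muscle and tracheae. The labels do not say whether replicate libraries were made from different sets of flies, so p-values measure only the spread between these libraries, which may be technical.

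Actin filaments grow mainly at their barbed ends, and the proteins encoded by these genes act at successive steps of that process. The Arp2/3 complex starts a new filament as a branch on the side of an existing one, once activators of the WASP and SCAR families have switched it on. Capping protein stops growth at barbed ends and so keeps branched networks dense and short. Profilin delivers monomers to growing ends, beta-thymosin repeat proteins hold monomers, and cofilin severs old filaments so that their subunits can be used again. In the gut such networks lie under the cell membrane and at the base of the brush border of enterocytes. No sequences are shown, because neither a genome nor protein or promoter sequences were used here.

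Library depth was 33082790 and 30610335 counts in replicate 3 of the knockdown and of the wild type, and 9818914 to 11857507 counts in the other libraries. A member had between 142 and 51720 counts in a library. Counting error weighs most for Arpc3A, with 178, 142 and 638 counts in the wild-type libraries 1, 2 and 3. Levels are in CPM, counts scaled to library size with TMM factors. Differences are log2 fold changes, fitted by edgeR as knockdown over wild type, with their standard error (SE). Rab11 had 64.4, 78.2 and 78.7 CPM in knockdown libraries 1, 2 and 3, against 319, 270 and 219 CPM in wild-type libraries 1, 2 and 3, and so was lower in each knockdown library. In bulk RNA a change in the number of cells of a type and a change in RNA per cell cannot be told apart. Marker genes of other cell types moved with the groups. Of all genes tested 9.05% were called higher and 7.63% lower. Of 14 enteroendocrine markers 11 rose and none fell, with a summed level of 1125 to 1358 CPM in the knockdown, against 479 to 522 CPM in the wild type. Of 10 stem cell and enteroblast markers 4 rose and none fell, with sums of 179 to 192 CPM in the knockdown, against 48.2 to 102 CPM in the wild type, and of that list sna was at 0 in at least 1 library. With single libraries removed, 5 to 10 enteroendocrine and 2 to 5 stem cell and enteroblast markers rose, the lowest numbers without wild-type replicate 1 and knockdown replicate 1. In these fits 3.21% to 6.88% of all genes were higher. Of 12 visceral muscle markers tested 1, Msp-300, fell (0 with any single library removed or with library sizes alone). With DESeq2 2 were lower, Msp-300 and sls (for sls adjusted p = 0.0307 in DESeq2 and 0.101 in edgeR). Without both replicate 3 libraries 1, TpnC73F, was higher (edgeR adjusted p = 0.0367). Muscle sums were 859 to 968 CPM in the knockdown, against 1069, 1158 and 2087 CPM in wild-type libraries 1, 2 and 3, with TpnC41C at 0 in at least 1 library. Msp-300 alone had 295, 223 and 258 CPM in knockdown libraries 1, 2 and 3, against 478, 477 and 530 CPM in the wild type. None of 13 enterocyte markers passed in edgeR without a block, 4 had an unadjusted p under 0.05, and 4 were lower with the replicate number as a block in edgeR and with DESeq2. Without both replicate 3 libraries 2 were lower, and with library sizes alone 1 was. Summed over the 13 markers, knockdown libraries 1, 2 and 3 had 42079, 76223 and 24554 CPM. Wild-type libraries 1, 2 and 3 had 130835, 137969 and 70352 CPM, and of these only replicate 3 lay within the knockdown range. None of 4 hemocyte and none of 7 tracheal markers tested passed in DESeq2 or in edgeR without a block, with 0 and 1 at an unadjusted p under 0.05. The tracheal marker Cht2 was higher in edgeR with the replicate block (adjusted p = 0.0403) and with library sizes alone (0.0385). Hemocyte sums were 105 to 171 CPM in the knockdown, against 82.9 to 98.3 CPM in the wild type, with nimC1, eater, He and nimC2 at 0 in at least 1 library. Most of each hemocyte sum was the single gene crq, which did not pass (edgeR adjusted p = 0.172). crq had 95.7, 96.9 and 151 CPM in knockdown libraries 1, 2 and 3, against 74.9, 92.0 and 65.5 CPM in the wild type. Tracheal sums were 31.0 to 38.6 CPM in the knockdown, against 20.1 to 25.7 CPM in the wild type, with obst-A at 0 in at least 1 library. The part of these cell types in the results below was not tested.

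For all 10 genes the lowest of the knockdown libraries stood above the highest of the wild-type libraries. Among all genes tested, 20.2% were higher in this sense. The knockdown level exceeded the wild-type level at each of the 3 replicate numbers for all 10. Together the 10 genes took 0.523%, 0.514% and 0.669% of the counts of knockdown libraries 1, 2 and 3, against 0.130%, 0.134% and 0.147% in wild-type libraries 1, 2 and 3. Their log2 fold changes ran from 0.84 for Arp14D to 2.88 for cib with a median of 1.37, where the median over all genes tested was 0.04. Of the 10 genes, 9 were among the genes called higher at an adjusted p under 0.05, and the exception was Arp14D. Of all genes tested 9.05% were called higher and 7.63% lower. Because the genes were chosen with this comparison known, nothing is read from that count. In 4 of the 10, namely Arpc3A, cpa, cib and tsr, the lowest knockdown library stood more than 2-fold above the highest wild-type library, as it did in 3.95% of all genes.

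**Figure D1:**
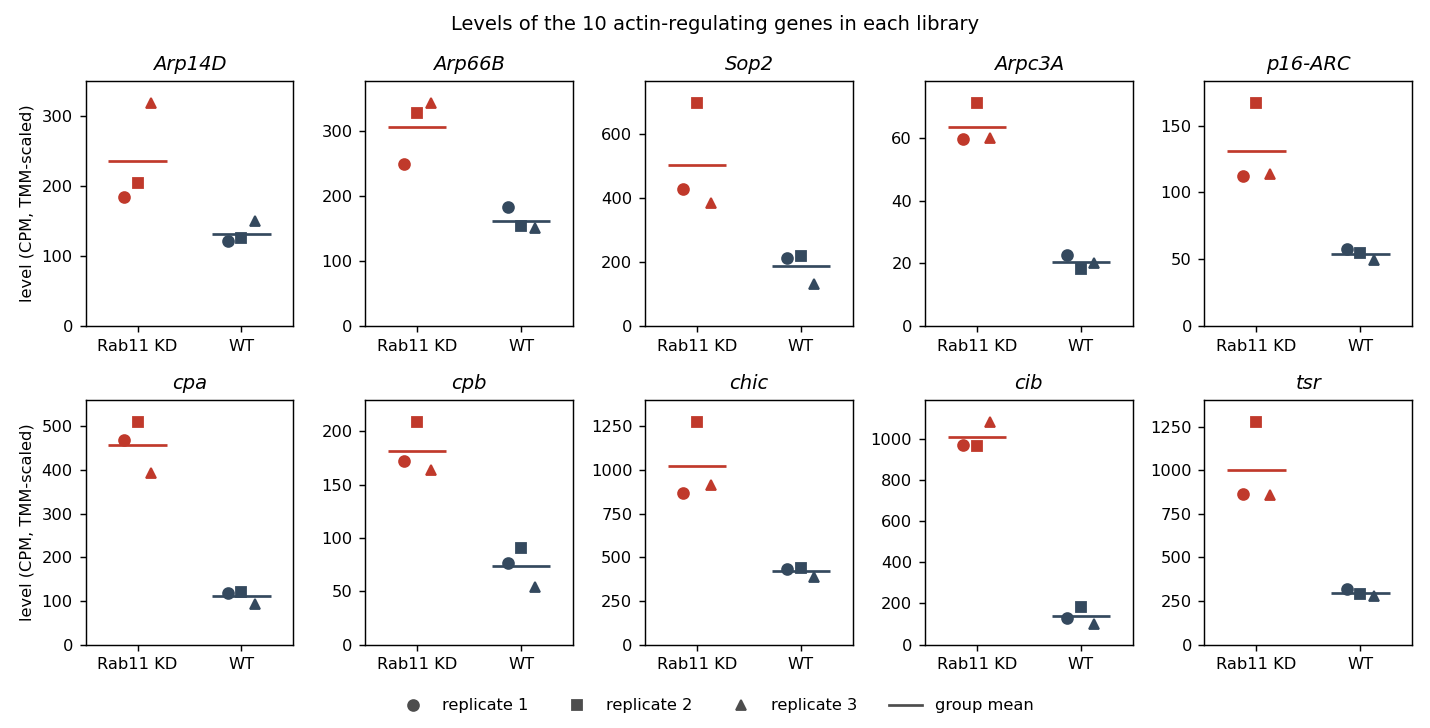
Level in CPM (TMM-scaled, linear axis from 0, one scale per gene) of each of the 10 genes in the 3 Rab11 knockdown libraries and the 3 wild-type libraries; symbols mark replicate numbers and bars the group mean. In every panel the 3 knockdown points lie above the 3 wild-type points, most widely apart for cib.

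The Arp2/3 subunit genes did not all differ to the same degree. Arp14D and Arp66B encode Arp2 and Arp3, the actin-related proteins that together form the seed of the new branch, and these had the smallest differences of the 10 genes. Arp14D had 185, 205 and 319 CPM in knockdown libraries 1, 2 and 3, against 122, 125 and 150 CPM in wild-type libraries 1, 2 and 3. Its replicate 3 library was the highest of each group, and the lowest knockdown library was 1.24-fold above the highest wild-type one. The log2 fold change was 0.84 ± 0.26 (SE), and it was 0.55 without knockdown replicate 3. Arp66B had 249, 328 and 343 CPM in knockdown libraries 1, 2 and 3, and 183, 153 and 151 CPM in wild-type libraries 1, 2 and 3, a log2 fold change of 0.92 ± 0.23 (SE).

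Sop2 encodes Arpc1, the subunit with a WD-repeat propeller that contacts activators. Its levels were 429, 696 and 386 CPM in knockdown libraries 1, 2 and 3, and 213, 218 and 130 CPM in wild-type libraries 1, 2 and 3. Here the replicate 3 library was the lowest of each group, the opposite of Arp14D, and the log2 fold change was 1.43 ± 0.34 (SE). Arpc3A, one of a pair of genes for the p21 subunit, had 59.7, 71.0 and 59.8 CPM in the knockdown, against 22.6, 18.1 and 20.1 CPM in the wild type. It was the lowest of the members in level, its libraries within a group lay close together, and its log2 fold change of 1.65 ± 0.18 (SE) was the highest among the 5 Arp2/3 members. p16-ARC, the p16 subunit, had 112, 167 and 114 CPM in the knockdown, against 57.8, 54.6 and 49.4 CPM in the wild type, a log2 fold change of 1.28 ± 0.22 (SE). An opposite-strand neighbour, Drp1, shares 13.4% of the exonic length of p16-ARC, and the sources used here do not say whether counting used strand. Drp1 itself had 103, 113 and 101 CPM in the knockdown, against 124, 152 and 110 CPM in the wild type.

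The remaining subunits of the complex are encoded by Arc-p34 (Arpc2), Arc-p20 (Arpc4) and Arpc3B, the paralog of Arpc3A, and these were not among the genes chosen. Arpc3B rose and Arc-p34 rose, while Arc-p20 did not pass in the main edgeR fit. Arpc3B had 176, 261 and 171 CPM in knockdown libraries, against 58.5, 45.3 and 46.1 CPM in wild-type libraries, in the order of replicates 1, 2 and 3. Its log2 fold change was 2.02 ± 0.25 (SE, edgeR adjusted p = 0.00352), and it passed whichever library was removed. How reads shared by the paralogs Arpc3A and Arpc3B were counted is not stated, so the split between them is uncertain. Arc-p34 had 165, 185 and 230 CPM in the knockdown, against 96.7, 83.0 and 119 CPM in the wild type (log2 fold change 0.96 ± 0.23, edgeR adjusted p = 0.0319). With 1 library fewer it passed only when wild-type replicate 3 was the one removed, and otherwise had an adjusted p of 0.0612 to 0.112. Arc-p20 had 268, 442 and 128 CPM in the knockdown, against 132, 124 and 51.0 CPM in the wild type, so that the groups overlapped, and its log2 fold change of 1.45 ± 0.52 (SE) had an adjusted p of 0.102 in edgeR. Its replicate 3 library was the lowest of each group, and with the replicate number as a block the edgeR adjusted p was 0.00727. Over the 8 Arp2/3 genes the log2 fold changes spanned 0.84 to 2.02 with a median of 1.36.

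**Figure D2:**
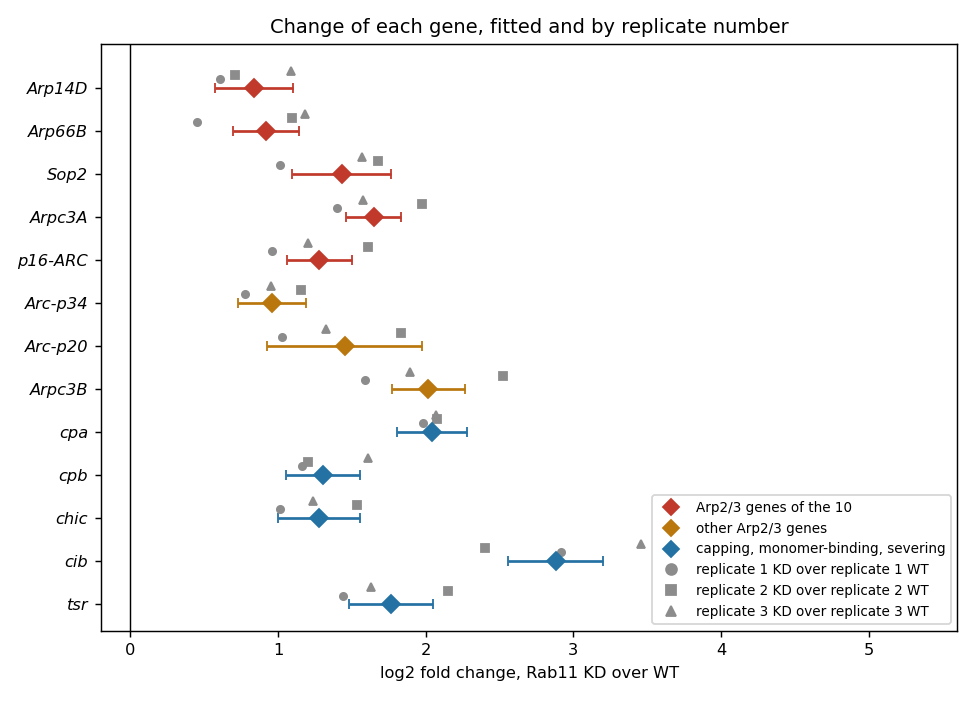
Fitted log2 fold change of knockdown over wild type with its standard error (diamonds and bars) for the 10 genes and the other 3 Arp2/3 genes; grey symbols are the log2 ratios of libraries that share a replicate number. Every value is above 0, Arp14D and Arp66B are lowest among the 10 genes and cib is highest, at 2.88.

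Per length of exon, the subunit genes were expressed at unequal levels. The following values are CPM per kilobase of exon, given as mean ± SD (n = 3 per group). Arc-p20 stood at 392.4 ± 221 in the knockdown, against 144 ± 62.5 in the wild type, and Sop2 at 291 ± 96.9 in the knockdown, against 108 ± 28.4 in the wild type. Arpc3B was at 258 ± 64.0 in the knockdown, against 63.6 ± 9.44 in the wild type, above its paralog Arpc3A at 56.6 ± 5.77 in the knockdown, against 18.03 ± 2.02 in the wild type. In each of the 6 libraries Arpc3B was thus the more abundant p21 gene per length. Arp66B was at 155 ± 25.3 in the knockdown, against 81.9 ± 8.88 in the wild type, and its partner Arp14D at 86.6 ± 26.4 in the knockdown, against 48.5 ± 5.58 in the wild type. For p16-ARC the level was 122 ± 28.9 in the knockdown, against 50.4 ± 3.95 in the wild type, and for Arc-p34 it was 98.0 ± 16.8 in the knockdown, against 50.4 ± 9.14 in the wild type. Of the level summed over 7 subunit genes (all but Arpc3B), Arp14D made up 6.41%, 4.77% and 12.1% in knockdown libraries 1, 2 and 3, and 7.86%, 8.63% and 13.6% in wild-type libraries 1, 2 and 3. Arc-p20 made up 35.5%, 39.4% and 18.5% in the knockdown, against 32.6%, 32.7% and 17.8% in the wild type. In both groups these shares differed more between replicate 3 and the other libraries than between the group means, which for Arp14D were 7.74% in the knockdown, against 10.04% in the wild type, and for Arc-p20 31.2% in the knockdown, against 27.7% in the wild type.

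**Figure D3:**
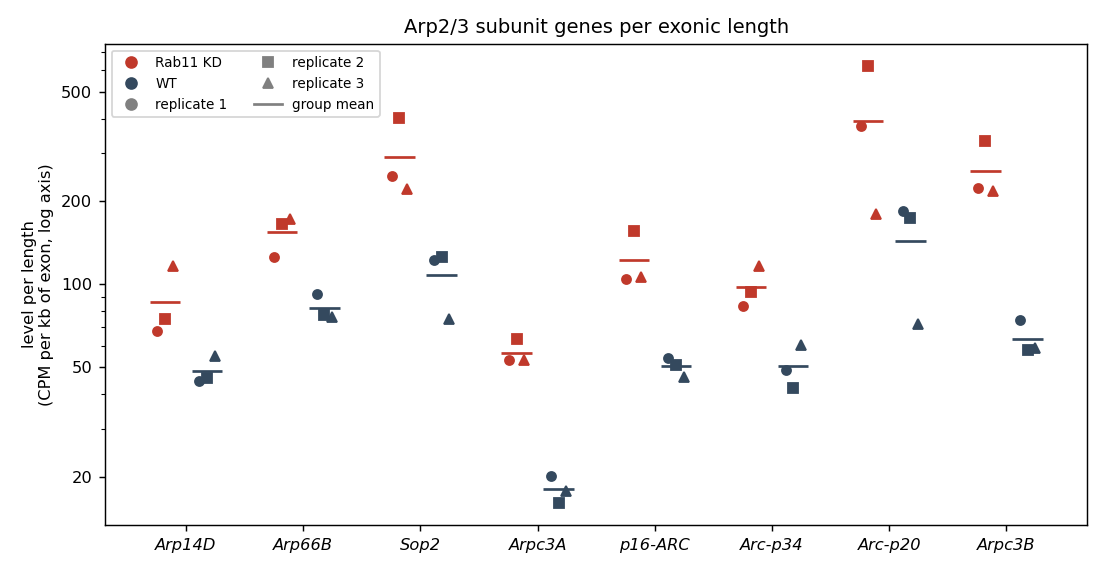
Level per exonic length (CPM per kilobase of exon, log axis) of 8 Arp2/3 subunit genes in each knockdown (red) and wild-type (dark) library, with symbols for replicate numbers and bars for group means. Arpc3A is lowest in both groups, and the replicate 3 library is low for Sop2 and Arc-p20 and high for Arp14D and Arc-p34 in knockdown and wild type alike.

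Capping protein is a heterodimer of one alpha and one beta subunit, encoded by cpa and cpb. Both genes were higher in the knockdown, and cpa more so. cpa had 470, 510.4 and 393 CPM in knockdown libraries 1, 2 and 3, against 119, 121 and 93.9 CPM in wild-type libraries 1, 2 and 3. Its mean was 4.12-fold higher in the knockdown, its log2 fold change was 2.04 ± 0.24 (SE), and the log2 ratios at replicate numbers 1, 2 and 3 were 1.98, 2.08 and 2.07. cpb had 172, 209 and 163 CPM in the knockdown, against 76.8, 90.8 and 53.6 CPM in the wild type, a log2 fold change of 1.30 ± 0.25 (SE). An opposite-strand neighbour of cpa, CG15653, shares 5.42% of its exonic length and had 4.84 to 5.65 CPM in the knockdown, against 1.27 to 2.58 CPM in the wild type (log2 fold change 1.31, edgeR adjusted p = 0.0452, and 0.0630 to 0.147 with any single library removed).

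The ratio of cpa to cpb counts within a library does not depend on how libraries are scaled. It was 2.73, 2.44 and 2.41 in knockdown libraries 1, 2 and 3, and 1.54, 1.33 and 1.75 in wild-type libraries 1, 2 and 3. The ranges did not overlap, and the mean log2 ratio was 0.72 higher in the knockdown (0.62 to 0.81 with any single library removed). Per kilobase of exon, the mean of cpa and cpb relative to the mean of 7 Arp2/3 subunit genes was 1.104, 0.832 and 1.05 in knockdown libraries 1, 2 and 3, and 0.628, 0.724 and 0.668 in wild-type libraries 1, 2 and 3. The mean of cpa and cpb was therefore higher relative to Arp2/3 in each knockdown library than in each wild-type library. For cpb alone the ranges of this ratio overlapped between the groups. The log2 fold change was 1.30 for cpb and 2.04 for cpa, where the median over the 8 Arp2/3 genes was 1.36.

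The monomer-binding genes differed most from each other. cib encodes Ciboulot, a protein of beta-thymosin repeats that binds actin monomers and, in flies, can feed them to barbed ends as profilin does. It had 972, 968 and 1083 CPM in knockdown libraries 1, 2 and 3, against 129, 184 and 98.7 CPM in wild-type libraries 1, 2 and 3. The lowest knockdown library was 5.27-fold above the highest wild-type library, the widest gap of the 10 genes. The mean was 1008 ± 65.4 CPM in the knockdown, against 137 ± 43.1 CPM in the wild type (SD, n = 3 each), a ratio of 7.36, with a log2 fold change of 2.88 ± 0.32 (SE). The log2 ratios at replicate numbers 1, 2 and 3 were 2.92, 2.398 and 3.46. In relation to its mean, cib varied least of the 10 genes among knockdown libraries and most among wild-type libraries.

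chic encodes profilin, which binds monomers and delivers them to filament ends and formins. It had 868, 1276 and 916 CPM in knockdown libraries 1, 2 and 3, against 431, 441 and 389 CPM in wild-type libraries 1, 2 and 3, a log2 fold change of 1.28 ± 0.28 (SE). tsr encodes cofilin, which severs filaments and speeds their turnover. It had 865, 1279.7 and 857 CPM in the knockdown, against 318, 289 and 277 CPM in the wild type, a log2 fold change of 1.76 ± 0.28 (SE). Knockdown replicate 2 was the highest library for chic, tsr, Sop2, Arpc3A, p16-ARC, cpa and cpb, whereas knockdown replicate 3 was highest for Arp14D, Arp66B and cib.

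Ratios within libraries show how the balance of these transcripts differed. Per kilobase of exon, cib stood to chic as 1.66, 1.13 and 1.76 in knockdown libraries 1, 2 and 3, and as 0.443, 0.618 and 0.377 in wild-type libraries 1, 2 and 3. cib was thus the more abundant of the pair in each knockdown library and the less abundant in each wild-type library. The ratio of chic to tsr varied little within groups, at 0.280, 0.278 and 0.298 in the knockdown, against 0.378, 0.427 and 0.392 in the wild type. The ranges did not overlap, and profilin transcripts were lower relative to cofilin transcripts in the knockdown.

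**Figure D4:**
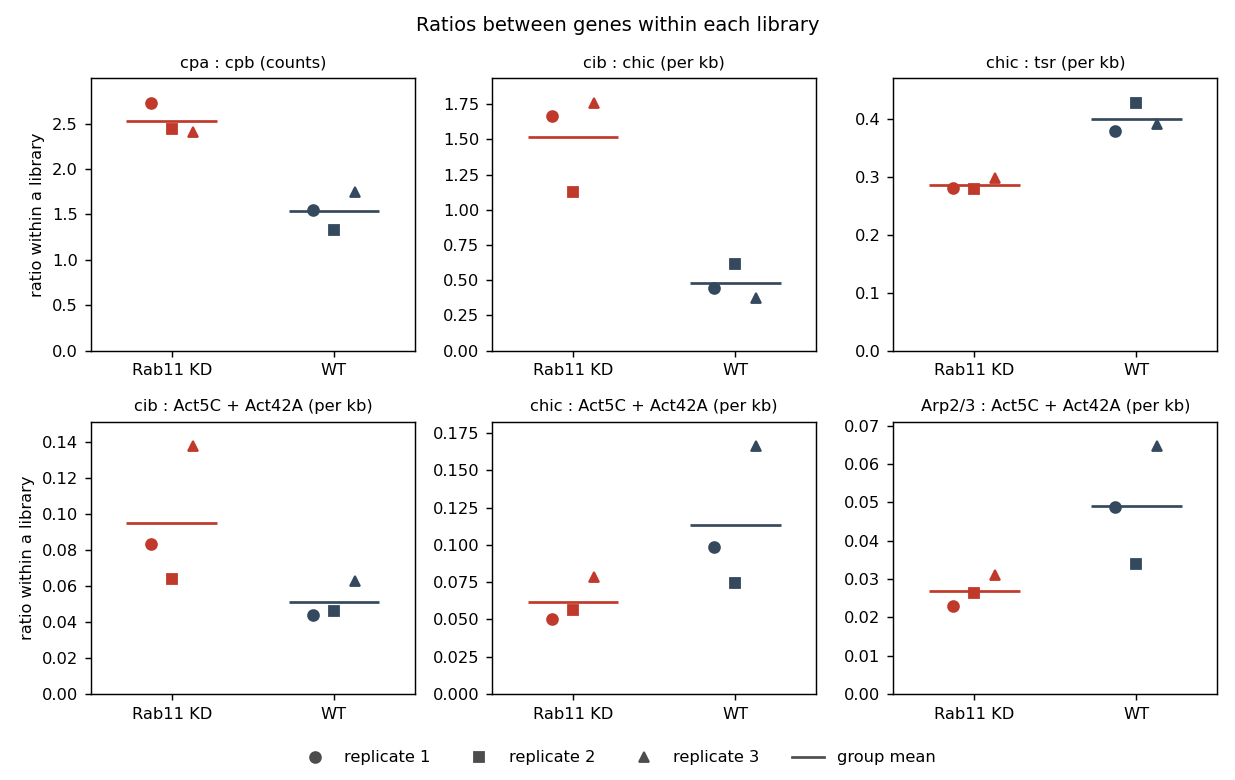
Ratios of 2 genes or gene sets within each library (linear axes from 0), which do not depend on library scaling; symbols mark replicate numbers and bars the group mean. Knockdown and wild-type libraries are apart for cpa to cpb, cib to chic, chic to tsr, cib to cytoplasmic actin and Arp2/3 to cytoplasmic actin, and overlap for chic to cytoplasmic actin.

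The order of the 10 genes by level per length also differed. In the knockdown, tsr was highest at 1361 ± 329 CPM per kilobase of exon (SD, n = 3), followed by cib at 569 ± 36.9, chic at 388 ± 84.7, Sop2 at 291 ± 96.9, cpa at 239 ± 31.0, Arp66B at 155 ± 25.3, p16-ARC at 122 ± 28.9, cpb at 94.3 ± 12.6, Arp14D at 86.6 ± 26.4 and Arpc3A at 56.6 ± 5.77. In the wild type the order was tsr at 401 ± 28.8, chic at 160 ± 10.6, Sop2 at 108 ± 28.4, Arp66B at 81.9 ± 8.88, cib at 77.3 ± 24.3, cpa at 57.9 ± 7.80, p16-ARC at 50.4 ± 3.95, Arp14D at 48.5 ± 5.58, cpb at 38.3 ± 9.76 and Arpc3A at 18.03 ± 2.02. cib took place 2 in the knockdown, against place 5 in the wild type. Some neighbours overlapped in mean ± SD, and their order was not tested. In the knockdown these were Sop2 and cpa, Arp66B and p16-ARC, and cpb and Arp14D. In the wild type they were Arp66B and cib, cpa and p16-ARC, and p16-ARC and Arp14D. Sop2 exceeded cpa and Arp66B exceeded p16-ARC in each knockdown library, and cpa exceeded p16-ARC in each wild-type library. The other pairs changed order between libraries. With the longest transcript as length, cib took place 2 in the knockdown, against place 4 in the wild type, and Arp14D place 9 in the knockdown, against place 7 in the wild type.

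These genes act on actin itself, so their levels were set beside those of the actin genes. Act42A, a cytoplasmic actin, had 2214, 3045 and 1696 CPM in knockdown libraries 1, 2 and 3, and 52.5, 167 and 29.4 CPM in wild-type libraries 1, 2 and 3 (log2 fold change 4.81 ± 0.74, edgeR adjusted p = 0.00697). Act5C, the more abundant cytoplasmic actin, had 15604, 19971 and 10137 CPM in the knockdown, against 4856, 6397 and 2593 CPM in the wild type, a log2 fold change of 1.72 ± 0.55 with an adjusted p of 0.0748 in edgeR, or 0.0116 with the replicate number as a block. Act79B, a muscle actin, fell, with 5.59, 5.31 and 5.28 CPM in the knockdown, against 24.0, 31.3 and 14.0 CPM in the wild type (log2 fold change -2.09 ± 0.32, edgeR adjusted p = 0.00697). The muscle actins Act57B and Act87E stood at 0.13 and 0.22 and did not pass, and Act88F had too few counts to be tested. Reads of these close paralogs may have been split between them.

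Relative to cytoplasmic actin, the genes did not all differ in the same direction. Per kilobase of exon, cib relative to the sum of Act5C and Act42A was 0.0832, 0.0637 and 0.138 in knockdown libraries 1, 2 and 3, and 0.0436, 0.0461 and 0.0627 in wild-type libraries 1, 2 and 3, with no overlap. For chic the ratio was 0.04996, 0.0565 and 0.0783 in the knockdown, against 0.0984, 0.0745 and 0.166 in the wild type, and the ranges overlapped, although it was lower in the knockdown at each replicate number (mean log2 difference -0.82). For tsr it was 0.178, 0.203 and 0.262 in the knockdown, against 0.260, 0.174 and 0.424 in the wild type, which overlapped too. The mean of 7 Arp2/3 genes relative to cytoplasmic actin was 0.0229, 0.0262 and 0.0311 in the knockdown, below the values of 0.0487, 0.0338 and 0.0646 in the wild type (mean log2 difference -0.84). Whether these ratios differ from one another in their response was not tested.

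Beyond these 10 genes, 84 genes of the actin cytoskeleton were taken from lists of named genes, of which 82 could be tested. The lists too were chosen with earlier results of these data known, so their counts and p-values are given as a description. Of the 82, 23 rose and 5 fell, beside 9.05% and 7.63% of all genes tested, and their median log2 fold change was 0.46. Without knockdown replicates 1, 2 and 3 in turn, 6, 8 and 20 of the list genes were higher, beside 3.25%, 4.05% and 6.88% of all genes. Without wild-type replicates 1, 2 and 3 in turn, 6, 9 and 12 were higher, beside 3.21%, 4.60% and 6.14%. With the replicate number as a block 35 were higher and 7 lower, and with DESeq2 34 and 6, where 15.2% and 12.2% of all genes were higher. With library sizes alone in place of TMM 32 list genes were higher and 2 lower, among 1154 higher genes of the 8377, and the median was 0.47 over all genes and 0.93 over the list genes. Within lists of 8 to 14 genes, counts of 1 or 2 calls are too small to set against the share over all genes. Nothing is read from them about the list.

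Of 17 activators of Arp2/3, 5 rose and 0 fell, with a median log2 fold change of 0.45. Cortactin, which binds the complex and stabilises branches, rose to 255 ± 41.1 CPM in the knockdown, against 103 ± 2.54 CPM in the wild type (n = 3 each; log2 fold change 1.31 ± 0.21, edgeR adjusted p = 0.00728), and passed whichever library was removed. Abi, HSPC300 and Hem, all subunits of the SCAR regulatory complex, rose, with log2 fold changes of 1.01, 1.09 and 0.59, and the GTPase Cdc42, which switches on WASP, rose with one of 1.05. The calls of these 4 depended on single libraries. Abi had an edgeR adjusted p of 0.0669 without knockdown replicate 1 and 0.0743 without wild-type replicate 1. For Cdc42 it was 0.0788 to 0.102 with any library removed other than knockdown replicate 3. For HSPC300 and Hem it was 0.0557 to 0.0981 and 0.0923 to 0.147 with any single library removed. The other subunits of the SCAR complex, named after their values were seen, were SCAR at 0.15 and Sra-1 at 0.45 (edgeR adjusted p = 0.594 and 0.183). Whamy, the most abundant activator that did not pass, was at 0.42.

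Formins, Spire and Ena build unbranched filaments, and in this list 1 of 8 genes rose and 2 fell, with a median of -0.37, which was 0.05 with library sizes alone. Fhos, a formin, fell to 47.9 ± 16.01 CPM in the knockdown, against 164 ± 9.89 CPM in the wild type (n = 3 each; log2 fold change -1.77 ± 0.28, edgeR adjusted p = 0.00722), with each library removed as well, but at an adjusted p of 0.0794 with library sizes alone. The formin capu fell by 1.05 on the log2 scale, and ena, which protects barbed ends from capping, rose by 1.12. The call of capu ended without knockdown replicate 1 or 3 (0.166 and 0.0873) or wild-type replicate 1 or 2 (0.130 and 0.108), or with library sizes alone (0.0871). That of ena held only with wild-type replicate 2 removed, and the adjusted p was 0.0829 to 0.132 without any of the others. The formin dia, the most abundant that did not pass, was at -0.01 (adjusted p = 0.984). With the replicate block 2 of the 8 were higher and 3 lower. Whether Arp2/3 genes and formin genes differ in their response was not tested.

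Genes of filament turnover rose in 5 of 12 cases and fell in 1, with a median of 0.79. The gene that fell is cdi, a kinase of the TESK family that phosphorylates cofilin, at 76.5 ± 5.02 CPM in the knockdown, against 249 ± 21 CPM in the wild type (n = 3 each; log2 fold change -1.70 ± 0.19, edgeR adjusted p = 0.00293). The monomer-binding protein gene twf (twinfilin) rose by 1.38 on the log2 scale (adjusted p = 0.00682), and CG5869, which encodes the branch-removing factor GMF, by 1.42 (adjusted p = 0.00985). These 3 passed with each library removed. capt, the cyclase-associated protein that recycles monomers from cofilin, and flr, an Aip1 protein that aids cofilin, rose by 1.37 and 0.94. Both passed with knockdown replicate 3 removed, and had adjusted p values of 0.0584 to 0.0877 and 0.0688 to 0.0890 with any other library removed. CG1399, the capping protein regulator CARMIL and the most abundant that did not pass, was at 0.15 (adjusted p = 0.727).

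Bundling and cross-linking genes showed no common direction, with 2 of 14 higher, 1 lower and a median of 0.02 (0.41 with library sizes alone). Zasp52, a partner of alpha-actinin, rose to 319 ± 39.9 CPM in the knockdown, against 89.3 ± 15.4 CPM in the wild type (n = 3 each; log2 fold change 1.83 ± 0.23, edgeR adjusted p = 0.00382), and passed with each library removed. Fim, the fimbrin of microvillar bundles, rose by 1.03 and shot, a spectraplakin that links actin and microtubules, fell by 1.06 on the log2 scale. Fim did not pass with any single library removed (0.0559 to 0.112), and shot passed only without wild-type replicate 3 (0.0554 to 0.136 otherwise, and 0.155 with library sizes alone). Chd64, the most abundant of those that did not pass, was at 0.91 (adjusted p = 0.0816, or 0.0356 with the replicate block).

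Of the 8 subunit genes of the chaperonin that folds actin and tubulin, 3 rose, 5 did not pass, and all had a log2 fold change above 0 with a median of 1.07. These were CG7033 (CCT2) at 0.93, Tcp-1eta (CCT7) at 1.09 and T-cp1 (CCT1) at 0.93, with edgeR adjusted p values of 0.0173, 0.0210 and 0.0260. With knockdown replicate 3 removed 7 passed, and with any other library removed 0, where the adjusted p values were 0.0513 to 0.0785 for CG7033, 0.0611 to 0.0868 for Tcp-1eta and 0.0670 to 0.0984 for T-cp1. With the replicate number as a block 7 passed, among them Cct5 at an adjusted p of 0.0104 (0.0532 without the block). None of the 3 tropomyosin and tropomodulin genes and neither Mrtf, at 0.45, nor bs, at 0.21, the cofactor and the SRF factor that respond to the monomer pool, passed in DESeq2 or in the main edgeR fit, with 1 of the 3 and 1 of the pair at an unadjusted p under 0.05. Tm1, the most abundant tropomyosin, was at 0.64 (adjusted p = 0.246), and tmod, which caps pointed ends, at 0.81, with an adjusted p of 0.131. For tmod the edgeR adjusted p was 0.0173 with the replicate block and 0.0446 without both replicate 3 libraries.

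**Figure D5:**
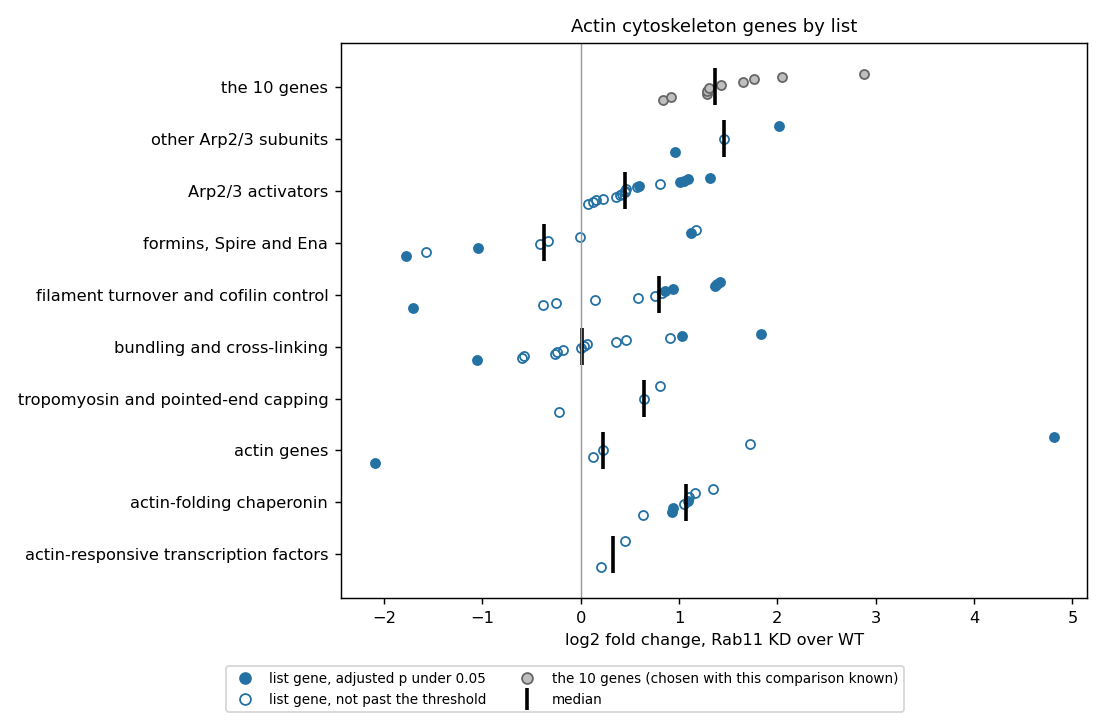
Log2 fold change of knockdown over wild type for each tested gene of 9 lists of actin cytoskeleton genes and, at the top, for the 10 genes; grey circles are the 10 genes, filled blue circles passed an adjusted p of 0.05 in edgeR, open ones did not, and bars are medians. The median is 1.37 for the 10 genes, 0.45 for Arp2/3 activators, -0.37 for formins, Spire and Ena and 1.07 for the chaperonin.

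The profile over the 6 libraries was averaged over the 10 genes after centring each on its mean log2 CPM, and stood at 0.61, 0.97 and 0.71 in knockdown libraries 1, 2 and 3 and -0.68, -0.67 and -0.95 in wild-type libraries 1, 2 and 3. Of the members, Arpc3A, tsr and chic followed it most closely, with root mean square differences of 0.145, 0.154 and 0.157 on the log2 scale, and cib and Arp14D least, at 0.733 and 0.489. Of the 5881 genes that averaged 10 CPM or more, the closest outside the members were CG8066 at 0.0644, Sox14 at 0.0715, Snx3 at 0.0724, Ice at 0.0779 and Gmd at 0.0884. The profile differs mainly between knockdown and wild type, so genes close to it are those with a difference of like size.

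The authors' deposited table, made with DESeq2, holds genes with an adjusted p under 0.1 and gives a log2 fold change for 9 of the 10 members, all above 0. Arp66B has no value in the table as used here, for a reason that was not found, and DESeq2 run on the counts placed it among the genes called. In the authors' deposited table the values run from 0.79 for Arp14D to 2.76 for cib, with 1.98 for cpa, 1.70 for tsr, 1.60 for Arpc3A, 1.34 for Sop2, 1.24 for cpb and 1.23 for both chic and p16-ARC. With single libraries removed, the number of members called higher by edgeR was 5, 5 and 8 without knockdown replicates 1, 2 and 3, beside 3.25%, 4.05% and 6.88% of all genes tested. The number without wild-type replicate 1, 2 or 3 was 5, 6 and 6, beside 3.21%, 4.60% and 6.14%. Arpc3A, p16-ARC, cpa, cib and tsr were called in each of these fits. Arp66B was called in none of them, Sop2 and chic only without knockdown replicate 3, and cpb without knockdown replicate 3 or wild-type replicate 2 or 3. Without both replicate 3 libraries 8 were called (9.95% of all genes), with the replicate block all 10 (15.2%) and with DESeq2 all 10 (12.2%). Because the members were chosen with this comparison known, these calls only describe how the fits vary, and nothing more is read from them.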

How the data were processed

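Counts of 6 midgut libraries were used, 3 of Rab11 KD and 3 of WT, with groups and replicate numbers taken from the titles. The authors deposited raw counts for each gene. STAR 2.4.2a, HTSeq 0.6.1, DESeq2 and the build BDGP5 are named in the submitters' processing notes, but neither the annotation nor the counting mode and strand. The labels name Ion Torrent and Illumina protocols without saying which library had which. The authors' deposited comparison table holds, per the file headers, log2 fold changes with their error, p-values and adjusted p-values, and the mean normalized count and Wald statistic as scores; of these the log2 fold changes are quoted.

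Genes were kept by filterByExpr (minimum count 10), libraries scaled by TMM, and groups compared with edgeR 4.0.16 (R 4.3.3) by the quasi-likelihood F-test, group as sole term, two-sided, Benjamini-Hochberg adjusted over 8377 genes, at 0.05. The standard error is the log2 fold change over the root of F. The test was tried on simulated counts. Exonic lengths (union of exons) and overlaps come from exon positions in the BDGP6 annotation, matched by name for all 10 members. Profiles used log2 CPM with a prior count of 2.

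Deviations from the group means of same-numbered libraries correlated at 0.14, 0.21 and 0.71 across genes. As each was above 0.1, the replicate number was added as a block in an alternative edgeR fit, while the main fit treated libraries as unpaired. This pairing comes from the data, not the labels. Knockdown 2 with wild type 1 (0.51) and knockdown 1 with wild type 2 (0.34) correlated more than numbers 1 and 2 did with their own, so the pairing is clear for replicate 3 alone. Counts between libraries of a group differed by a chi-square per gene of 67.7 to 376, above counting noise, so each counted as 1 replicate; repeat preparations of 1 RNA cannot be told from it. Members and lists were chosen with earlier results of these data known. Named are all members, Rab11, the actin genes, in each list the most abundant gene that did not pass and up to 5 that did, by smallest p, and the 5 genes of nearest profile. SCAR, Sra-1, Drp1, CG15653, Cht2, tmod, bs, Msp-300, sls, TpnC73F, crq and the marker genes at 0 were added after their values were seen. Alternatives were other scalings, filters and tests, the replicate block, and libraries left out. No column of other samples was present. A list of actin cytoskeleton genes, included in the totals over lists, is not reported here.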

Additional observations from a re-analysis of the deposited data

How the results depend on the processing

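All 10 members stayed above 0 under each of the 14 alternatives, with log2 fold changes between 0.55 and 3.37. Scaling set their size: library sizes alone moved the median of all genes to 0.47 (cib 3.37, Arp14D 1.31) and the share of calls that were higher to 82.8% from 54.3%, and upper-quartile factors moved that median to 0.11. With single libraries left out, the genes changed numbered 460 to 1138, the members called 5 to 8, the other list genes called 9 to 24, and the log2 difference of the cpa to cpb ratio was 0.62 to 0.81. With the replicate block 2451 genes changed (1397 without it) and 42 list genes (28 without it), and all 10 members were called. As members and lists were chosen with earlier results known, these calls are a description. With single libraries left out Act57B spanned -0.13 (without knockdown replicate 1) to 0.36, with -0.10 without wild-type replicate 1, and Act87E spanned -0.014 (without wild-type replicate 1) to 0.45, so both turned; the cause was not tested. Near 0, dia was at 0.438 with library sizes alone, 0.0399 with a mean of at least 10 CPM, 0.0117 with no filter, 0.0687 with upper-quartile factors, 0.00447 without both replicate 3 libraries and -0.114 to 0.0982 with single libraries left out, and CG1399 was at -0.0618 without both replicate 3 libraries and -0.0929 to 0.281 with single libraries left out; the cause was not tested. All 5 genes of nearest profile were the same with a prior count of 0.5. Having 3 libraries a group limits the precision, and 3 against 3 cannot give an exact permutation p under 0.1.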
